A study of Mus musculus with 7 samples.

Results

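Histone genes were examined in RNA-seq libraries of mouse blastocyst inner cell masses, with the genes of the histone clusters set against the genes of the histone variants. The 82 members are the protein-coding genes of the count table whose GENCODE M21 symbol begins with Hist1h, Hist2h, Hist3h or Hist4h (67 genes, called clustered here) or with H1f, H2af or H3f (15 genes, called variant), out of 52636 genes in all. Another 9 symbols of the same form are not protein-coding in that annotation and were left out. The symbols decided membership, and no measured value entered that rule, though the members were chosen with earlier results of these data known.

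The study switched on ERK signalling in pre-implantation embryos and sequenced RNA from 7 pools of 10 inner cell masses, labelled as epiblast at embryonic day 3.5. All embryos had the genotype Sox2Cre;CRAFR26, that is a Cre recombinase under Sox2 control and a tamoxifen-inducible CRAF construct that activates ERK. All were flushed at day 2.5, and 24 h of culture followed in KSOM medium with the FGF receptor inhibitor PD173074 at 250 nM. The vehicle group (3 pools, time label 0 h) received ethanol for 4 h, and the tamoxifen group (4 pools) received 250 nM 4-hydroxytamoxifen for 4 h. Both groups carry the construct and the Cre, and no pool without them was analysed here. The mouse line was made from embryonic stem cells targeted with the construct, and the pools come from clones 4 and 8. Vehicle is represented by clone4_1, clone4_2 and clone8_1, and tamoxifen by clone4_1, clone4_2, clone8_1 and clone8_2, so clone 8 has 1 vehicle library. According to the series' text, 1 further vehicle sample was discarded at quality control. The labels do not say whether pools with different numbers come from different litters, so the p-values measure the spread between these pools.

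Chromatin is built from nucleosomes, in which DNA winds around a core of the histones H2A, H2B, H3 and H4, with the linker histone H1 binding outside. Most core and linker histone genes lie in clusters, have no introns, are transcribed in S phase, and give mRNAs that end in a short stem-loop instead of a poly(A) tail. The stem-loop is bound by SLBP, which directs the processing, translation and decay of these mRNAs. Variant histone genes lie apart, mostly have introns and a poly(A) tail, and are expressed through the cell cycle. The library kit used here primes reverse transcription with oligo-dT, per the product's usual protocol, so a level counts histone mRNA that this priming captured and not all of it.

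The annotated ends of the members were read first, because they separate the classes. The stem-loop core searched for on the coding strand is 16 bases long: GGNNNTTNTNANNNCC, with N for any base, in which the first 6 and the last 6 bases pair (G with T allowed) around a loop of 4. It was found within 100 bases after the stop codon in 46 of 67 clustered members, with the core starting 21 to 58 bases after the stop. Of the other 21 clustered members, 15 have fewer than 16 bases annotated after the stop, so the search could not find it there. Among the 15 variants it was found in H2afx alone, and among 21480 other protein-coding genes in 4 (0.0186%), which are Gm9507, H2bfm, Nemp1 and Ttc14. The cores are nearly uniform: 26 clustered members share one spelling, all of the H1, H2A, H2B and H3 families, and 7 H4 genes share another. The following stem-loops, from the GENCODE M21 transcripts on GRCm38, are shown because they span the spellings among the members described below. Capitals mark the core.

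Hist1h2ae, chr13:23570663-23570688, minus strand: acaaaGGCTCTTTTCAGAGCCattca
Hist1h2bk, chr13:22036295-22036320, plus strand: ccaaaGGCTCTTTTAAGAGCCactaa
Hist1h3g, chr13:23535884-23535909, plus strand: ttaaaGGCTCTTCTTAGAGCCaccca
Hist1h4d, chr13:23581945-23581970, plus strand: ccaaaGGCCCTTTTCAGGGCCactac
Hist1h4i, chr13:22040961-22040986, minus strand: ttaaaGGCCCTTTTTAGGGCCaccac
H2afx, chr9:44335235-44335260, plus strand: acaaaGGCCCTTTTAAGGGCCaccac

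A poly(A) signal, AATAAA or ATTAAA on the coding strand within the last 50 bases of an annotated transcript, was found in 17 clustered members (25.4%) and 10 variants (66.7%), against 78.9% of other protein-coding genes. In 14 clustered members it accompanies a stem-loop, as it does in H2afx. Hist1h2ae is such a case: its stem-loop ends 151 bases before the annotated transcript end and its poly(A) signal follows. These signals are shown, with the signal in capitals, for Hist1h2ae and Hist1h4i, which were among the most abundant clustered members, and for the 3 most abundant variants per kb.

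Hist1h2ae, chr13:23570527-23570556, minus strand: cccagcttctccAATAAAtgggtcaatttt
Hist1h4i, chr13:22040639-22040668, minus strand: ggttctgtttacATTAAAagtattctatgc
H2afz, chr3:137866885-137866914, plus strand: ctctgcttactaATTAAAcagtgcatctgt
H3f3b, chr11:116021987-116022016, minus strand: ataggccttacaAATAAActagtaagtttg
H2afx, chr9:44336031-44336060, plus strand: tgggctaattttATTAAAggatcgtttggt

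The libraries held 22981498 to 42294719 counts. Levels are given as CPM, the usual counts-per-library scale, with library totals adjusted by TMM factors, and between genes as CPM per kb of the typical annotated coding transcript. Epiblast markers were present in every library, with the sum of 10 genes at 1664 to 2043 CPM in vehicle and 1707 to 2198 CPM in tamoxifen. Primitive endoderm markers summed to 844 to 1147 CPM and 883 to 1030 CPM, also over 10 genes. Dab2 alone gave 639 to 822 CPM in vehicle and 560 to 747 CPM in tamoxifen. Gata6 averaged 65.4 and 90.7 CPM, Sox17 2.95 and 17.7 CPM, Gata4 1.19 and 1.68 CPM and Sox7 0.157 and 0.138 CPM. Of the 9 tested, 6 were higher and 3 lower with tamoxifen, and none was called. Sox17 and Lama1 were higher without overlap, as were 3.71% of all genes tested. The 10 trophectoderm markers summed to 8525 to 11220 CPM in vehicle and 6541 to 9528 CPM in tamoxifen, although the labels say that the trophectoderm was removed. All 10 were lower with tamoxifen, none was called, and their part in the histone results was not tested. No gene of these 3 lists was at 0 in all libraries. In bulk RNA, fewer cells of a type and less RNA per cell cannot be told apart.

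Captured variant mRNA outweighed captured clustered mRNA in every library. Priming with this kit is usually by oligo-dT, and clustered mRNAs mostly end in a stem-loop instead of a poly(A) tail. The ratios below therefore compare captured mRNA and not all histone mRNA. The 15 variants summed to 4788, 4831 and 3700 CPM in vehicle clone4_1, clone4_2 and clone8_1, and to 4730.2, 4560.1, 4850.1 and 4293 CPM in tamoxifen clone4_1, clone4_2, clone8_1 and clone8_2. The 67 clustered genes summed to 126, 157 and 40.3 CPM in the vehicle libraries and to 112, 97.9, 131 and 115 CPM in the tamoxifen libraries, in the same order. The variant sum was therefore 30.7 to 46.6 times the clustered sum in 6 libraries and 91.8 times in vehicle clone8_1. Per kb of transcript, the ratio was 19.6 to 27.0 in those 6 and 53.0 in vehicle clone8_1. The clustered counts of that library, 1655 in all, were 0.00413% of its counts (95% Wilson interval 0.00394% to 0.00434%). The same share was 0.00989% (0.00949% to 0.0103%) in tamoxifen clone4_2, the lowest of the other 6. These intervals cover counting error only, since the reads carry no molecular identifiers.

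**Figure D1:**
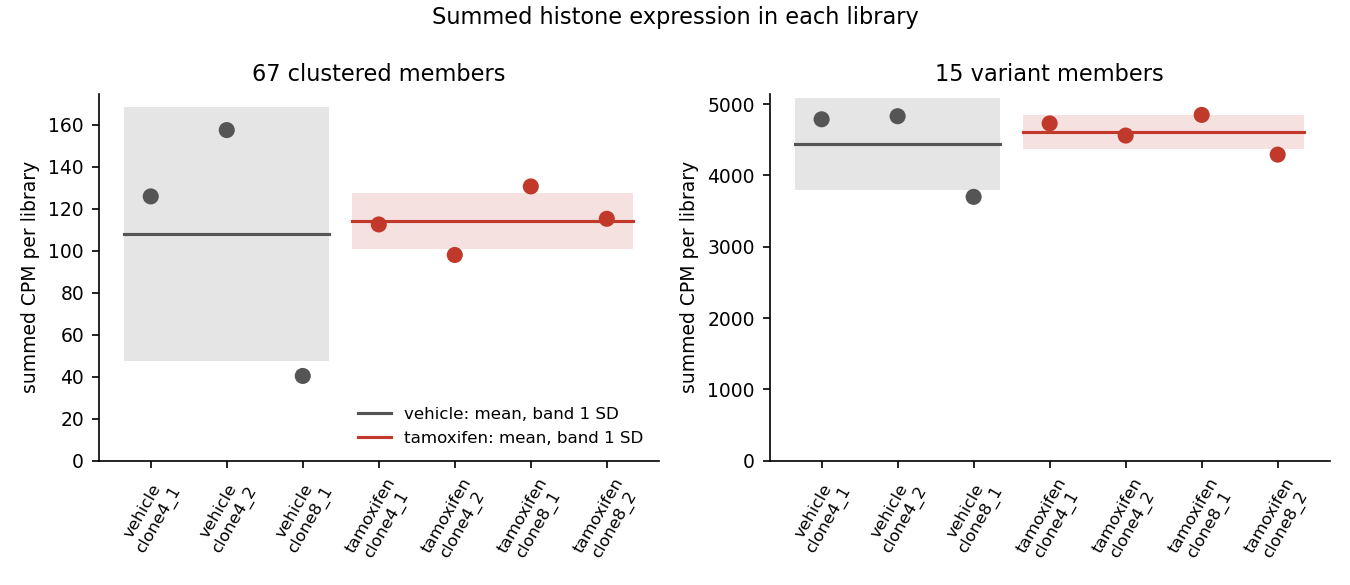
Summed CPM of the 67 clustered members (left) and the 15 variant members (right) in each of the 7 libraries, with a line for the group mean and a band of 1 SD. Vehicle clone8_1 is the lowest point in both panels, at 40.3 CPM for the clustered genes against 97.9 to 157 CPM elsewhere.

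Of the 82 members, 61 passed the filter on low counts (50 clustered, 11 variant) and entered the test. The other 21 comprise 17 clustered and 4 variant genes. No read was counted in any library for 9 members: Hist1h2ba, Hist1h2br, Hist2h2aa1, Hist2h2aa2, Hist2h2bb, Hist2h3b, Hist2h3c1, H2afb1 and H2afb3. A count of 0 allows up to 3 counts, which is 0.0710 to 0.129 CPM depending on the library. H1fnt, a linker histone of spermatids, and the H2afb genes, short H2A variants of testis, had at most 3 counts over all libraries.

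Near-identical copies limit what the clustered counts can show. In the median clustered member 54.1% of the 50-base stretches of its transcripts also occur in transcripts of another gene, against 8.76% in the median variant. For Hist2h2aa1, Hist2h2aa2, Hist1h2bq, Hist2h2bb, Hist2h3b and Hist2h3c1 this share was 100%, and none of these 6 had more than 3 counts in total. How reads that match several genes were counted is not given in the sources used here, so a level near 0 of such a member is uncertain. Among the 33 clustered members with under 50% shared stretches, the median level was 1.54 CPM per kb, against 1.15 CPM per kb in the 28 members with 50% to under 100%.

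The members' levels, which count captured mRNA, spanned a wide range, and 8 variants lay above every clustered gene. The median level was 34.9 CPM per kb among the 15 variants and 0.898 CPM per kb among the 67 clustered members. H2afz, which encodes H2A.Z, a replacement H2A placed at promoters, led with 1836 CPM per kb. H3f3b followed with 885 and H2afx with 349 CPM per kb. H3f3b encodes the replacement histone H3.3, and H2afx encodes H2A.X, which is phosphorylated at DNA breaks. The next were H2afv (136), the second H2A.Z gene, H3f3a (124), the second H3.3 gene, H2afy (76.9), which encodes macroH2A1, H2afj (72.0) and H1f0 (34.9 CPM per kb), the replacement linker histone H1.0. H3f3b and H2afz together held 73.8% to 79.8% of variant CPM in each library. Of the 50-base stretches of H2afz, 69.6% also occur in other genes, so its level is the least certain of the abundant variants.

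H2afz was counted at 1455, 1934 and 825 CPM in vehicle clone4_1, clone4_2 and clone8_1. In tamoxifen clone4_1, clone4_2, clone8_1 and clone8_2 it was at 1674, 1571, 1523 and 1427 CPM, a narrower spread that lay inside the vehicle range. H3f3b varied least of the abundant variants, with 2109, 1924 and 2118 CPM in vehicle and 1888, 1933, 2057 and 1931 CPM in tamoxifen. H2afx was at 541, 456 and 465 CPM in vehicle and 530.5, 447, 571 and 368 CPM in tamoxifen. In neither H3f3b nor H2afx was vehicle clone8_1 the lowest library. H2afv was at 167, 128 and 39.5 CPM in vehicle and 186, 165, 187 and 153 CPM in tamoxifen, with vehicle clone8_1 far below the other 6 libraries.

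Pairs of related variant genes kept an order in all 7 libraries. H3f3b counts exceeded H3f3a counts by 14.2 to 25.7 times, and H2afz counts exceeded H2afv counts by 8.14 to 20.9 times, with the highest ratio of both pairs in vehicle clone8_1. These counts are not corrected for length. The typical transcript is 2253.5 nt for H3f3b and 888 nt for H3f3a, and 810 nt for H2afz and 1076 nt for H2afv. Of the 50-base stretches, 30.3% of H3f3a and 69.6% of H2afz also occur in other genes. H2afy counts exceeded those of H2afy2, the gene of the distinct protein macroH2A2, by 31.7 times in vehicle clone8_1, the lowest ratio, and by 55.7 to 98.5 times in the other 6 libraries. The remaining tested variants were low: H2afy2 at 1.63 to 3.19 CPM, H1foo at 0.108 to 3.92 CPM and H1fx, a linker histone, at 0.170 to 0.938 CPM.

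Among the clustered genes, Hist1h2bc (chr13:23684199-23692908, plus strand), an H2B gene, was the most abundant at 17.1 CPM per kb. It is one of 5 clustered members with an annotated spliced transcript, and no stem-loop or poly(A) signal was found at its annotated ends by these searches. It was at 27.6, 23.2 and 5.38 CPM in vehicle and 24.7, 21.3, 23.9 and 12.03 CPM in tamoxifen. Hist1h2ae (12.3), Hist1h4i (10.7) and Hist1h1b (8.70 CPM per kb) came next, followed by Hist1h2bk (8.26) and Hist1h2bj (8.13 CPM per kb). Neighbours in this order did not differ beyond their spread: Hist1h2ae was at 1.51 to 14.4 CPM and Hist1h4i at 2.90 to 13.2 CPM over the libraries. The 14 clustered members with both end features had a median of 1.12 CPM per kb, the 32 with a stem-loop alone 1.10, and the 15 with under 16 bases annotated after the stop 1.13 CPM per kb. The 6 with a longer end and no stem-loop, Hist1h2bc among them, had a median of 0.340 CPM per kb and ranged from 0 to 17.1. These groups of clustered genes overlapped in level.

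**Figure D2:**
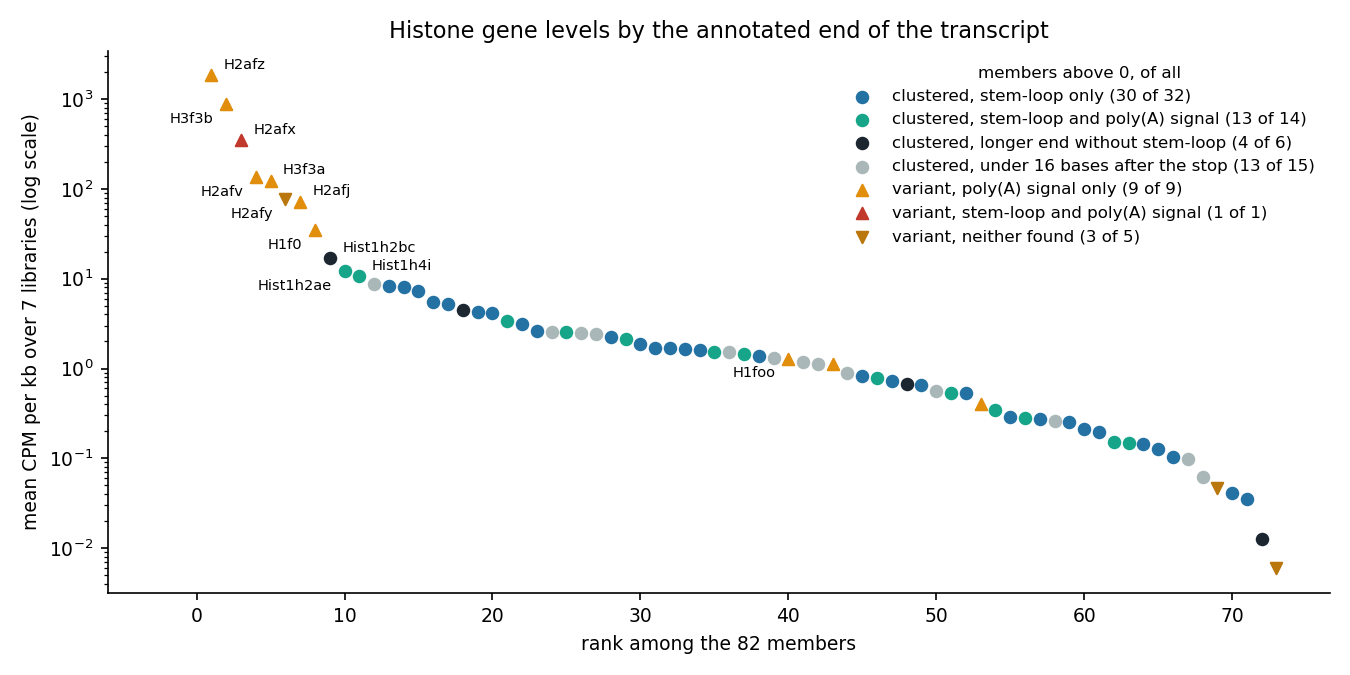
Mean CPM per kb over the 7 libraries (log scale) of the 73 members above 0, ranked among all 82 and marked by class and by what was found at the annotated transcript end. Triangles for variants fill the first 8 ranks, and the clustered genes with and without a poly(A) signal are mixed along the rest.

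By family, H2B held 36.4% of clustered CPM over all libraries, H2A 17.8%, H1 17.7%, H4 16.6% and H3 11.5%. By position, 54 of the clustered genes lie in the Hist1 cluster on chromosome 13. The block from 23531050 to 23764406 holds 29 of them and gave 60.8% of clustered CPM. A short block of 5 genes around Hist1h4i, from 22035164 to 22043676, gave 17.3% and had the highest median, 8.13 CPM per kb. The 18 genes from 21715763 to 21837530 gave 15.03%. The Hist2 block of 10 genes on chromosome 3 gave 2.68%, with 5 of its genes at 0 counts, and the Hist3 pair on chromosome 11 gave 3.66%.

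Head-to-head arrangement is common in these clusters. There were 12 pairs of members transcribed away from each other with 175 to 305 bp between their annotated starts, and every pair joined an H2A to an H2B gene. Both genes passed the filter in 8 pairs, and the H2B gene had the higher CPM per kb in 5 of those. The stretches of the pairs with the most unequal CPM per kb in each direction, among those 8 pairs, are shown along the plus strand of GRCm38 as RefSeq gives it (chr13:23571221-23571395 and chr13:23683949-23684198). Capitals mark CCAAT, the box bound by NF-Y, and TATAAA, a spelling of the box bound by TBP, on either strand.

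Hist1h2ae to Hist1h2bg: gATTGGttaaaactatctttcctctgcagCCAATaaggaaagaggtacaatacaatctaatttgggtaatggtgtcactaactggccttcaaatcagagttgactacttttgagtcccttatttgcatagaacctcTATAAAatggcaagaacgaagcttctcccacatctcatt
Hist1h2ac to Hist1h2bc: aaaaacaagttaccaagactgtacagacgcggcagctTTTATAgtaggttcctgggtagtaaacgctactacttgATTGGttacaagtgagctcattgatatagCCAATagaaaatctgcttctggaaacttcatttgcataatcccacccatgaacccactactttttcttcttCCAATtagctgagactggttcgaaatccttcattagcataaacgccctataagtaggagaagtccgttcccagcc

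Across the first stretch, Hist1h2ae averaged 8.63 CPM and Hist1h2bg 1.91 CPM. Across the second, Hist1h2ac averaged 0.312 CPM and Hist1h2bc 19.7 CPM. Each stretch holds CCAAT on both strands and a single TATAAA. In the 300-base promoter windows of RefSeq, from 250 bases before to 50 after the start, CCAAT occurred on either strand in 53 of 62 matched clustered members (85.5%) and in 10 of 14 variants (71.4%), against 40.9% of 26949 other genes. The matched clustered members without it were all H4 genes: Hist1h4b, Hist1h4f, Hist1h4h, Hist1h4i, Hist1h4j, Hist1h4k, Hist1h4m, Hist1h4n and Hist4h4. Among the matched H4 genes only Hist1h4a, Hist1h4c and Hist1h4d held it. TATAAA occurred in 35 of the 62 clustered members (56.5%), in 1 of the 14 variants, H3f3b, and in 15.6% of other genes. The head-to-head windows overlap, so the paired genes are not independent entries in these counts.

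Vehicle clone8_1 stood apart for the histone genes, and every condition effect below has to be read with and without it. For each tested member the log2 CPM of a library was set against the gene's median over the 7 libraries. The median of this deviation over the 50 clustered members was -1.59 in vehicle clone8_1 and between -0.14 and 0.37 in the other 6 libraries. For the 11 variants it was -0.75, against -0.12 to 0.18 elsewhere. Vehicle clone8_1 was the lowest of the 7 libraries for 40 of the 50 clustered members (80.0%) and for 7 of the 11 variants.

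The same library was low for other short transcripts. Among other protein-coding genes, 226 have a median transcript length below 600 nt. For these its deviation had a median of -2.21, and it was the lowest library for 77.4%. In 901 genes from 600 to under 1000 nt the deviation was -1.15, with 69.6% lowest. It was 0 in 3352 genes from 1000 to under 2000 nt (23.2% lowest) and 0.013 in 8539 longer genes (15.96% lowest). Variant members had medians of -0.63 in 2 under 1000 nt, -0.93 in 6 from 1000 to under 2000 nt and 0.13 in 3 longer ones. Clustered members had a low median in each length class. It was -1.58 in 24 members under 600 nt (87.5% lowest) and -1.72 in 11 from 600 to under 1000 nt (90.9% lowest). In 15 clustered members of 1000 nt or more it was -1.60, with 60% lowest. Of those 15, 13 hold a stem-loop. Their median annotated length is 1679 nt. The distance from the start to the end of the stem-loop has a median of 503 nt and is under 1000 nt in 12 of the 13. These are annotated positions, and where the captured mRNAs end was not measured. The share of transcript length in the low clustered level of this library was not tested.

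**Figure D3:**
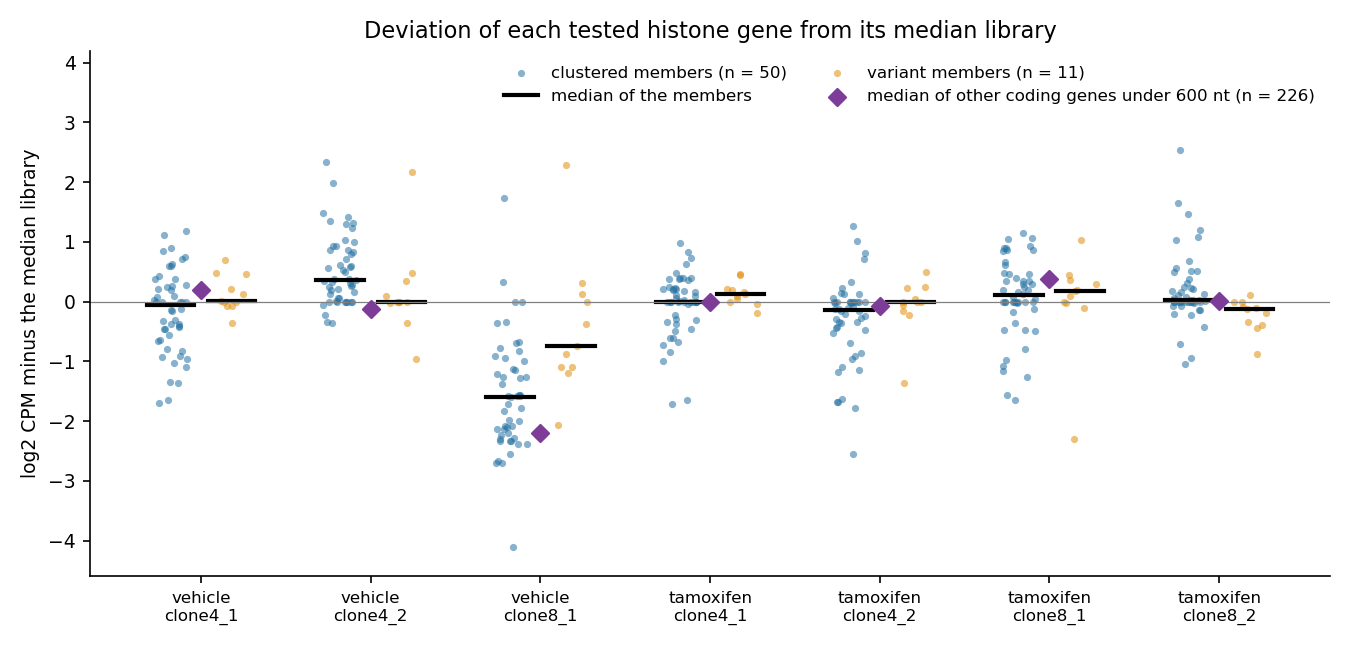
Deviation of log2 CPM from the gene's median library for each tested clustered (blue) and variant (orange) member, by library, with black bars for the class medians and diamonds for the median of 226 other coding genes under 600 nt. In vehicle clone8_1 the clustered median is -1.59 and the short-gene median -2.21, and in the other libraries the class medians lie between -0.14 and 0.37.

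The members did not share the shortfall equally. Against the median of the other 6 libraries, vehicle clone8_1 differed on the log2 scale by -4.28 for Hist1h2bg, -2.61 for Hist1h2ae, -2.39 for Hist1h4d, -2.12 for Hist1h2bc and -2.07 for H2afv. For H2afz and H2afy the differences were -0.91 and -0.86. H3f3b (0.13), H2afx (-0.081) and H2afy2 (0.33) stayed near the others. Hist2h2be, an H2B gene whose 2620-nt annotated transcript has a poly(A) signal and no stem-loop, was 0.48 higher there, with 2.39 CPM against 0.545 to 2.69 CPM elsewhere. Hist1h1t, the testis linker histone, was 2.56 higher, but at 0.536 CPM. By family, the median difference was -2.15 for the 10 tested H2A genes, -2.10 for 14 H2B, -2.03 for 10 H4, -1.37 for 6 H1 and -1.30 for 10 H3 genes.

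The comparison of tamoxifen with vehicle asks how 4 h of ERK activation changes transcription. After Benjamini-Hochberg adjustment over the 16248 genes tested by edgeR's quasi-likelihood method, no member had an adjusted p under 0.05, and neither had any other gene (0%). The smallest adjusted p was 0.794. At an unadjusted p under 0.05 there were 2 members, H1foo and Hist3h2a, both lower with tamoxifen, of 61 tested. Of all genes 3.28% were lower and 2.69% higher at that level, 970 genes in all. DESeq2 called 4 genes, none of them a member, and gave an unadjusted p under 0.05 to 1217 genes and to the same 2 members. Leaving out 1 library moved the edgeR count of members at that level between 1 (H1foo alone, without tamoxifen clone4_1, clone4_2 or clone8_1) and 6 (without vehicle clone4_2), with 4 without vehicle clone4_1 or clone8_1. The share of all genes at that level moved too, being 3.91% to 4.21% in the first 3 settings, 6.84% without vehicle clone4_2, 8.97% without vehicle clone4_1 and 6.54% without vehicle clone8_1. Members came to 1.67% to 1.79%, 9.84%, 6.67% and 6.67% in the same settings.

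H1foo (chr6:115944938-115950236, plus strand) encodes the linker histone of the oocyte. It was at 1.07, 3.61 and 3.92 CPM in vehicle clone4_1, clone4_2 and clone8_1 and at 0.757, 0.258, 0.108 and 0.388 CPM in tamoxifen clone4_1, clone4_2, clone8_1 and clone8_2. All 4 tamoxifen libraries were below all 3 vehicle libraries, though tamoxifen clone4_1 and vehicle clone4_1 were close. The vehicle mean was 2.87 ± 1.57 CPM (SD, n = 3) and the tamoxifen mean 0.378 ± 0.277 CPM (SD, n = 4). On the log2 scale the fold change was -2.88 ± 0.73 (SE), with an edgeR adjusted p of 0.794. Its unadjusted p in this test was 0.00276. Over the 14 alternatives the fold change lay between -3.49 and -2.17, with adjusted p from 0.0971 (DESeq2) to 0.961.

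Other oocyte genes, a list of 11 added after the values of H1foo were seen, are given beside it. Of the 8 that passed the filter, 7 were lower and 1 was higher with tamoxifen, and none was called. Their sum over 11 genes was 38.0 to 68.0 CPM in vehicle and 50.2 to 68.1 CPM in tamoxifen, and none was at 0 in all libraries. Gdf9, an oocyte growth factor, was at 0.893, 2.86 and 3.60 CPM in vehicle and 0.284, 0.818, 0.505 and 0.0971 CPM in tamoxifen, so its groups did not overlap either. Bmp15, another oocyte growth factor too low for the test, was at 0.223 to 0.950 CPM in vehicle and 0 to 0.0485 CPM in tamoxifen. Zp3, a zona pellucida gene, was at 4.56 to 12.1 CPM and 4.08 to 9.52 CPM. The part of oocyte RNA in the H1foo difference was not tested.

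Hist3h2a (chr11:58954685-58956830, plus strand), an H2A gene, was at 3.42, 9.09 and 1.73 CPM in vehicle and 1.44, 2.24, 1.59 and 2.45 CPM in tamoxifen. The groups overlap, and vehicle clone4_2 was far above all other libraries. The log2 fold change was -1.29 ± 0.55 (SE; edgeR unadjusted p = 0.0406, adjusted p = 0.794) and -0.42 without vehicle clone4_2. Its neighbour Hist3h2ba, an H2B gene, was at 1.79, 1.96 and 0.170 CPM in vehicle and 0.189, 0.302, 1.44 and 0.752 CPM in tamoxifen. Its groups overlap as well, and its clone 4 libraries were high in vehicle and low in tamoxifen.

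Besides H1foo, 1 member had groups that did not overlap. Hist1h2ai, an H2A gene, was higher with tamoxifen: 0.694, 0.747 and 0.390 CPM in vehicle and 0.781, 1.42, 1.70 and 1.14 CPM in tamoxifen. Its log2 fold change was 1.04 ± 0.61 (SE; edgeR adjusted p = 0.798), at 16 to 47 counts per library. It was named after its values were seen, and 90.1% of its 50-base stretches occur in other genes. Among all genes tested, 3.71% were higher and 4.74% lower with tamoxifen without overlap, so 1 of 61 in each direction was not more than the background. Without 1 library the number of such members lay between 3 and 16, the latter without vehicle clone4_2, while 8 were found without vehicle clone8_1, 6 without vehicle clone4_1 and 4 without tamoxifen clone4_2. Fewer libraries leave fewer genes overlapping in general. Of all genes, 16.7% had groups without overlap when vehicle clone8_1 was left out (13.1% of members), 21.8% without vehicle clone4_1 (9.84% of members) and 12.1% without tamoxifen clone4_2 (6.56% of members). Without vehicle clone4_2 there were 2928 of 16248 genes (18%) and 26.2% of members.

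As a class, the clustered genes showed no direction that was independent of vehicle clone8_1. With all libraries, 36 of 50 were higher and 14 lower with tamoxifen, at a median log2 fold change of 0.27, against 0.019 over all genes tested. Without vehicle clone8_1, 18 were higher and 31 lower of 49, at a median of -0.15. In clone 4 alone, 11 were higher and 37 lower of 48, at a median of -0.34. Some other settings that keep vehicle clone8_1 raised the median: 44 were higher and 6 lower with clone as a term (median 0.48), 40 and 10 with the replicate block (0.46), and 42 and 8 without vehicle clone4_2 (0.72). Others lowered it, to 0.23 without tamoxifen clone4_1, 0.20 without tamoxifen clone8_1 and 0.25 without tamoxifen clone8_2. The variants gave 7 higher and 4 lower of 11 (median 0.14), 5 and 6 without vehicle clone8_1 (-0.056), and 4 and 7 in clone 4 alone (-0.037). None of these fits called a member.

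The ratio of the classes turned with the same library. The log2 ratio of the clustered to the variant sum was -5.57 ± 0.84 (SD, n = 3) without and -5.34 ± 0.16 (SD, n = 4) with tamoxifen. The difference of 0.23 is smaller than the vehicle SD, and without vehicle clone8_1 it was -0.25. Clustered CPM averaged 108 ± 60.6 (SD, n = 3) without and 114 ± 13.4 (SD, n = 4) with tamoxifen. Variant CPM averaged 4439.9 ± 641 (SD, n = 3) and 4608 ± 242 (SD, n = 4). Setting the clustered sum against the 226 other coding genes under 600 nt, a reference chosen after the values were seen, gave -7.53 ± 0.37 (SD, n = 3) and -8.01 ± 0.050 (SD, n = 4) on the log2 scale, a difference of -0.48. On that reference vehicle clone8_1 (-7.34) lay beside vehicle clone4_2 (-7.29), and vehicle clone4_1 (-7.96) lay beside the tamoxifen libraries (-8.08 to -7.97).

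**Figure D4:**
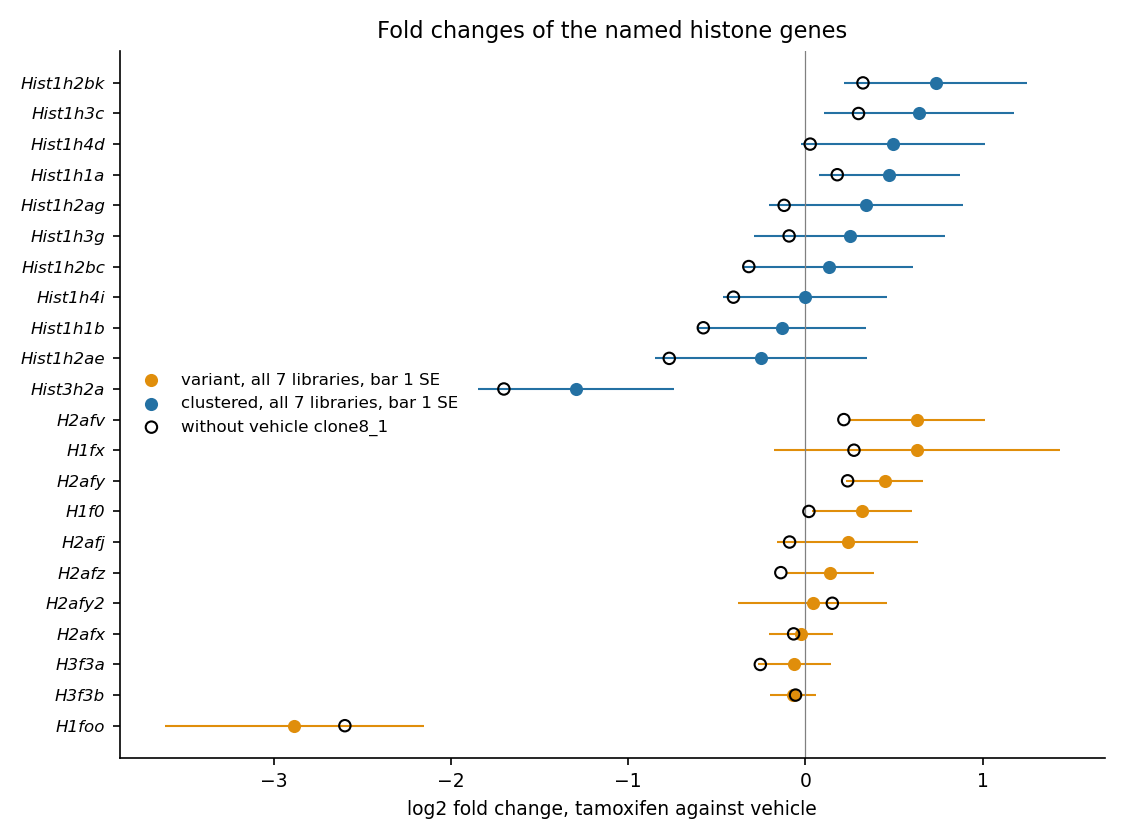
Log2 fold change, tamoxifen against vehicle, of the 22 named members with all 7 libraries (filled, bar 1 SE) and without vehicle clone8_1 (open circles). Most open circles lie to the left of the filled ones, while H1foo stays between -2.88 and -2.60.

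Among the variants, H2afy and H2afv had the largest fold changes above 0 relative to their error. H2afy, the macroH2A1 gene, was at 142, 149 and 88.8 CPM in vehicle and 173, 178, 203 and 137 CPM in tamoxifen, overlapping through tamoxifen clone8_2. Its log2 fold change was 0.45 ± 0.22 (SE; edgeR adjusted p = 0.794), and 0.24 without vehicle clone8_1. H2afv had 0.63 ± 0.38 (SE; adjusted p = 0.799), and 0.22 without it. For H3f3b the value was -0.070 ± 0.13 (SE), for H2afx -0.024 ± 0.18 (SE) and for H2afz 0.14 ± 0.25 (SE), which are less than their errors. H3f3a was at -0.063, H2afj at 0.24, H1f0 at 0.32 and H1fx at 0.63, of which only H1f0 exceeded its SE of 0.28.

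The median fold change was below 0 in the clustered H1 genes and above 0 in the core histone families, a difference that was not tested. Of the 6 clustered H1 genes, 2 were higher and 4 lower with tamoxifen (median log2 fold change -0.37), and 1 was higher and 5 lower without vehicle clone8_1 (median -0.68). The corresponding medians with all libraries were 0.20 in both H2A and H2B, 0.41 in H3 and 0.42 in H4, and without vehicle clone8_1 they were -0.23, -0.16, 0.079 and -0.038. Hist1h1e, a somatic linker histone, was at 6.07, 7.16 and 0.901 CPM in vehicle and 2.77, 2.28, 0.902 and 2.91 CPM in tamoxifen. Hist1h1c was at 5.70, 9.03 and 4.94 CPM and at 5.73, 2.20, 4.87 and 4.25 CPM. Hist1h1b, the most abundant of them, was at 8.26, 10.1 and 2.02 CPM and at 5.21, 5.90, 6.78 and 6.94 CPM.

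As a share of clustered CPM, H1 took 19.5%, 20.5% and 25.3% in the vehicle libraries and 17.2%, 14.6%, 13.5% and 16.9% in the tamoxifen libraries. The groups did not overlap, at 21.8% ± 3.08 (SD, n = 3) and 15.5% ± 1.79 (SD, n = 4). This share was singled out after its values were seen, from 5 family shares, and was given no test. The shares of the other 4 families overlapped between the groups: H2A at 17.8% ± 4.94 and 16.5% ± 2.28, H2B at 34.8% ± 2.09 and 38.1% ± 4.69, H3 at 10.6% ± 2.05 and 12.3% ± 1.78, and H4 at 14.9% ± 4.37 and 17.5% ± 3.40 (SD, n = 3 and n = 4).

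**Figure D5:**
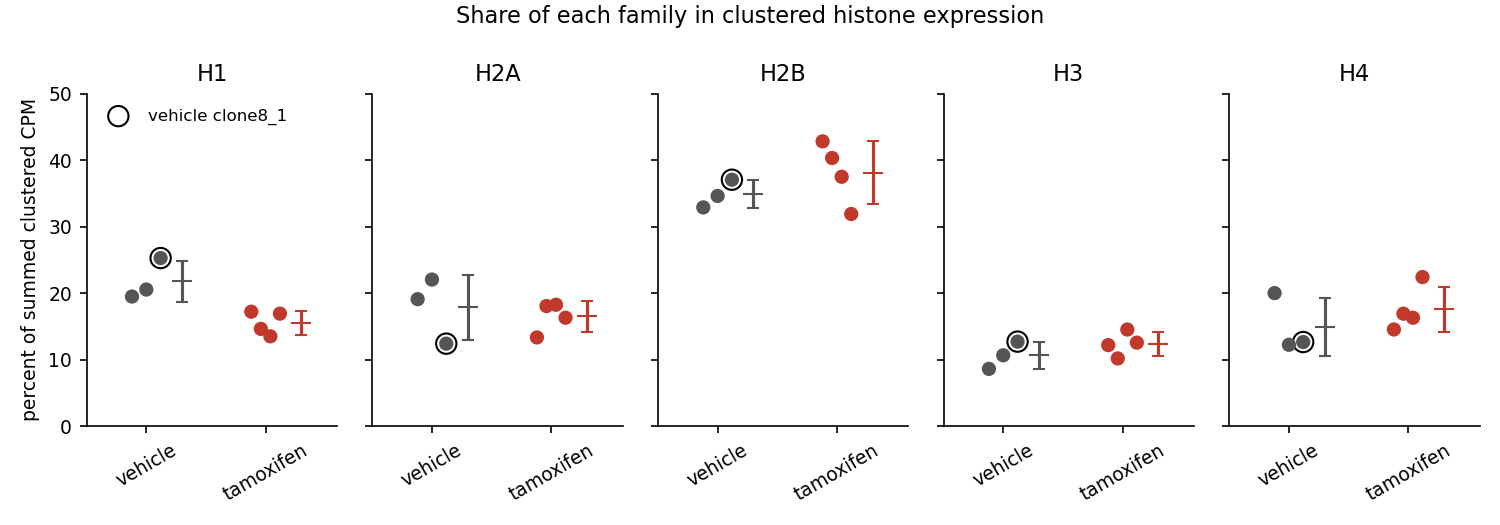
Percent of summed clustered CPM in each family, by library (points) with the group mean and 1 SD, and with vehicle clone8_1 circled. The H1 shares of the 3 vehicle libraries (19.5% to 25.3%) lie above those of the 4 tamoxifen libraries (13.5% to 17.2%), and the other families overlap.

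The 2 most abundant genes of each clustered family had edgeR adjusted p-values of 0.803 to 0.999 in the condition test. Hist1h2ae had a log2 fold change of -0.25 ± 0.60 (SE), Hist1h2ag 0.34 ± 0.55, Hist1h2bc 0.13 ± 0.48, Hist1h3g 0.25 ± 0.54 and Hist1h4d 0.49 ± 0.52. Hist1h2bk (0.74 ± 0.52), Hist1h3c (0.64 ± 0.53) and Hist1h1a (0.47 ± 0.40) exceeded 1 SE, at edgeR adjusted p of 0.803, 0.825 and 0.825. Without vehicle clone8_1 these 3 were at 0.32, 0.30 and 0.18, and in clone 4 alone at 0.12, -0.13 and 0.13. The 5 before them were at -0.77, -0.12, -0.32, -0.092 and 0.027 without vehicle clone8_1, in the order given. Hist1h4i had a fold change near 0 (edgeR adjusted p = 0.999), with 13.2, 7.38 and 2.90 CPM in vehicle and 7.08, 6.33, 6.50 and 11.3 CPM in tamoxifen. Its values spread as widely within each group as between them.

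The change with tamoxifen was also compared between the clones. The edgeR interaction test called 3 members, all with a higher change in clone 8, against 510 of 16248 genes in that direction (3.14%), so the share of members was 3 of 61. Hist1h2ae had an interaction of 3.77 ± 0.63 (SE) on the log2 scale (adjusted p = 0.0164), H2afv 1.86 ± 0.33 (adjusted p = 0.0204) and Hist1h4d 2.92 ± 0.63 (adjusted p = 0.0475). In the clone 8 libraries Hist1h2ae was at 1.51 CPM in vehicle and 11.2 and 8.10 CPM in tamoxifen, while in clone 4 it was at 12.6 and 14.4 CPM in vehicle and 5.32 and 7.28 CPM in tamoxifen. Hist1h4d was at 1.29 against 9.42 and 7.33 CPM in clone 8, and at 7.22 and 6.75 against 5.75 and 6.16 CPM in clone 4. The clone 8 side of each interaction rests on the single vehicle library clone8_1, so the clone and that library cannot be told apart. With DESeq2's size factors Hist1h4d missed the threshold (edgeR adjusted p = 0.0504), and DESeq2's own test called 9 of 61 members and 1016 of 16248 genes (6.25%, in both directions). The median interaction was 2.48 over the clustered members and 0.70 over the variants, against 0.10 over all genes tested.

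None of the factors that make and place histones was called. Of 16 genes for histone mRNA synthesis and 3′ processing, all tested, 5 were higher and 11 lower with tamoxifen (median log2 fold change -0.17). Slbp, the stem-loop binding protein gene, averaged 226 ± 67.1 CPM (SD, n = 3) with vehicle and 207 ± 10.4 CPM (SD, n = 4) with tamoxifen, with a log2 fold change at -0.13 ± 0.20 (SE). Npat, the cyclin E-CDK2 substrate that activates histone gene transcription, was at 49.3 ± 9.84 CPM (SD, n = 3) and 36.9 ± 11.1 CPM (SD, n = 4), -0.42 ± 0.27 (SE). Ncbp1, a subunit of the nuclear cap-binding complex, was at 105, 110 and 143 CPM in vehicle and 84.7, 82.5, 65.7 and 95.8 CPM in tamoxifen, and Cstf2, a cleavage factor, at 125, 122 and 129 CPM and 86.2, 92.6, 65.0 and 109.5 CPM. The groups of these 2 genes did not overlap, with edgeR unadjusted p of 0.0152 and 0.0221 and adjusted p of 0.794. Tut7, named after its values were seen, was also lower without overlap. It was at 52.3 to 69.7 CPM in vehicle and 22.9 to 50.9 CPM in tamoxifen. That makes 3 of 16 genes lower without overlap, against 4.74% of all genes tested.

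Of 24 genes for histone chaperones and deposition, 8 were higher and 16 lower (median -0.13), and Atrx alone had an unadjusted p under 0.05. ATRX works with DAXX to place H3.3, and Atrx was at 187, 198 and 172 CPM in vehicle and 135, 119, 106 and 150 CPM in tamoxifen, a log2 fold change of -0.54 ± 0.17 (SE; edgeR unadjusted p = 0.00853, adjusted p = 0.794). The groups of Atrx did not overlap, and neither did those of Srcap, which was named after its values were seen. Srcap was at 5.28 to 6.60 CPM in vehicle and 3.74 to 4.95 CPM in tamoxifen. That makes 2 of 24 genes lower without overlap, against 4.74% of all genes tested. Daxx had -0.32 ± 0.19 (SE), and Hira, of the other H3.3 pathway, 0.78 ± 0.46 (SE). The replication-coupled chaperone genes differed by less than their error between the groups in Chaf1a (-0.13 ± 0.20), Chaf1b (0.091 ± 0.18) and Asf1b (-0.13 ± 0.19), while Asf1a was at 0.39 ± 0.29 (SE). Cenpa, the gene of the centromeric H3 variant, whose symbol lies outside the members' rule, was at 208 ± 64.9 CPM (SD, n = 3) and 231 ± 25.6 CPM (SD, n = 4).

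Of 20 genes for DNA replication in S phase, the phase in which clustered histone genes are transcribed, 9 were higher and 11 lower (median -0.033). At an unadjusted p under 0.05, Rrm2 (-0.54 ± 0.22, SE), Ccne1 (-0.69 ± 0.25) and Ccne2 (-0.78 ± 0.26) were lower and Gins2 (0.68 ± 0.25) was higher, with an edgeR adjusted p of 0.794 in each. Ccne1 and Ccne2 encode cyclin E, which drives entry into S phase. Ccne2 was at 13.7, 9.18 and 12.5 CPM in vehicle and 6.72, 7.75, 6.06 and 6.91 CPM in tamoxifen, without overlap. In the other direction 2 genes of the list had groups without overlap, Tyms and Pole, which were named after their values were seen. Tyms, the thymidylate synthase gene, was at 206, 191 and 213 CPM in vehicle and 251, 242, 243 and 234 CPM in tamoxifen. Pole, a DNA polymerase gene, was at 36.7, 34.05 and 35.9 CPM in vehicle and 37.5, 54.5, 37.9 and 41.3 CPM in tamoxifen. Among all genes tested, 3.71% were higher and 4.74% lower without overlap.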

How the data were processed

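RNA from 7 pools was sequenced after oligo-dT primed library preparation from 2 ng (NEBNext Single Cell/Low Input kit, per the labels). The authors deposited raw counts per Ensembl gene. Reads were aligned with STAR 2.5.3a to mm10 after bcl2fastq 2.19.1, per the submitters' processing notes. The counting tool, its strand setting and its treatment of reads with several matches are not given in the sources used here. The labels put each library in its group.

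Gene IDs were matched to GENCODE M21 on GRCm38 (52489 of 52636; the others held at most 0.0113% of a library's counts). Genes with enough counts by group (filterByExpr, 16248) entered the quasi-likelihood test of edgeR 4.0.16 (R 4.3.3) with TMM scaling. Its p-values were adjusted over all of them by Benjamini and Hochberg's method, with a threshold of 0.05. The model had condition alone. The interaction model had clone, condition and their product. DESeq2 1.42.0 was an alternative. The SE of a fold change is its size divided by the square root of F. Log2 CPM used a prior count of 2. Typical length is the median over coding transcripts. The script was tested on simulated data. Sequences came from M21 transcripts and RefSeq GRCm38.p6 promoter windows. Transcript sequence was used for the ends in place of genome sequence.

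The members and lists were chosen with earlier results of these data known. Genes were named by rule: every tested variant, the 2 highest clustered genes per family by CPM per kb, clustered genes at an unadjusted p under 0.05 or called in the interaction, fixed chaperone and processing genes, and genes of the 3 related lists at an unadjusted p under 0.05. Other members and oocyte genes named here were chosen after their values were seen. Alternatives changed the normalization, the filter, the tool, the covariates and the libraries. Reads per library ranged from 22981498 to 42294719 counts, so a count of 0 allows 0.0710 to 0.129 CPM. Intervals are 95% Wilson intervals.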

Additional observations from a re-analysis of the deposited data

Results flagged for a closer look

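In the tamoxifen group, Hist1h3c was highest in clone8_1, at 2.46 log2 CPM against 1.34 for the next library, a gap that passed Dixon's 95% limit for 4 samples. Npat was lowest in the same library, at 4.36 log2 CPM against 5.34 for the next. Of 41 groups of 4 libraries tested this way 2 passed, and chance flags about 1 in 20.

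The change with tamoxifen differed between the clones for 3 of 61 members (4.92%) in edgeR's interaction test. The same test called 3.16% of all genes, so such calls were not confined to histone genes. The difference was 3.77 for Hist1h2ae, 2.92 for Hist1h4d and 1.86 for H2afv on the log2 scale, each higher in clone 8. The interaction rests on vehicle clone8_1, the single vehicle library of clone 8.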

How the results depend on the processing

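No member was called in the condition test under any of the 14 alternatives. Members at an unadjusted p under 0.05 numbered 2 of 61 with edgeR (5.97% of all genes), 5 of 59 in clone 4 alone (7.87%), 5 of 61 without both clone8_1 libraries (7.25%) and 1 to 6 with 1 library left out (3.91% to 8.97%). Members without overlap numbered 2 of 61 (8.45% of all genes), against 11 without both clone8_1 libraries (23.7%) and 3 to 16 with 1 library left out (11.5% to 21.8%). The interaction called 3 of 61 members (3.16% of all genes), 7 of 73 without the low-count filter (3.49%) and 9 of 61 with DESeq2 (6.25%). With DESeq2's size factors the interaction of Hist1h4d was 2.90 and missed the threshold.

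Shared labels gave no sign of pairing: the correlations of deviations were 0.0078, 0.021 and -0.068. With the replicate block, 1 member and 721 genes had an unadjusted p under 0.05, against 2 and 970 without it, and none was called. With the block the fold change of H2afx was 0.080, of Hist1h1b 0.049 and of Hist1h2ae 0.031.

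The log2 difference of the clustered to variant ratio, 0.23 in all libraries, was -0.37 in clone 4 alone and -0.25 to 0.54 with 1 library left out. A different ratio, of the clustered sum to short coding genes (chosen after seeing the data), gave -0.48 in all libraries. The clustered sum gave 0.29, -0.42 in clone 4 alone and -0.31 to 0.67. The variant sum gave 0.063, -0.088 without both clone8_1 libraries and -0.063 to 0.13. The stem-loop count stayed at 46 under its alternatives.

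Of 532 fold changes of 38 named genes under the alternatives, 54 changed sign and 478 did not, and 17 genes never did. The cause was not tested. In clone 4 alone the log2 fold change was -0.023 for H1f0, -0.19 for H2afj, -0.071 for H2afz, -0.47 for Hist1h2ag, -0.15 for Hist1h2bc, -0.13 for Hist1h3c, -0.60 for Hist1h3g, -0.24 for Hist1h4d, 0.14 for Slbp, -0.22 for Asf1a and -0.059 for Cenpa. Without both clone8_1 libraries it was -0.089 for H1f0, -0.058 for H1fx, -0.15 for H2afj, -0.13 for H2afz, -0.31 for Hist1h2ag, -0.40 for Hist1h2bc, -0.097 for Hist1h3c, -0.22 for Hist1h3g, -0.13 for Hist1h4d, 0.12 for Slbp and -0.14 for Cenpa. With clone as a term it was 0.13 for Hist1h1b, 0.070 for Hist1h2ae and 0.17 for Hist1h4i. With 1 library left out the ranges were -0.089 to 1.07 for H2afj, -0.12 to 0.086 for H2afx, -0.11 to 0.20 for H2afy2, -0.14 to 0.44 for H2afz, -0.25 to 0.17 for H3f3a, -0.58 to 0.27 for Hist1h1b, -0.77 to 0.17 for Hist1h2ae, -0.12 to 0.64 for Hist1h2ag, -0.32 to 0.52 for Hist1h2bc, -0.092 to 0.59 for Hist1h3g, -0.41 to 0.60 for Hist1h4i, -0.34 to 0.086 for Slbp, -0.27 to 0.0093 for Asf1b, -0.26 to 0.00050 for Chaf1a, -0.0040 to 0.25 for Chaf1b and -0.085 to 0.35 for Cenpa.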
